A study of Arabidopsis thaliana with 6 samples.

Results

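HY5 (AT5G11260, array row ATH1.250420_at, where ATH1 is the name of the array) and its closest relative HYH (HY5-HOMOLOG, AT3G17609, array row ATH1.258349_at) are 2 of the 22746 probe sets that measure plant transcripts on the Affymetrix arrays used here. Both rows were chosen by their row identifiers, with their red light and dark signals already in view, so their response to red light is given as a description and was not tested. The platform annotation names HYH for its row. It does not list the row of HY5, whose pairing with the gene could therefore not be checked in the files used here. Of the 2 probe sets, 1 (HY5) was bright enough to enter the filtered test described with the processing, and HYH lay below that filter.

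The samples were 1 cm root tips of Arabidopsis thaliana seedlings grown for 7 days in darkness at 23 °C on half-strength salts medium with 1% sucrose. In the red light group, 3 samples came from seedlings lit for 1 h at a peak wavelength of 630 nm and a photon flux between 12 and 14 µmol per square metre per second. In the dark group, 3 samples came from seedlings kept in darkness for that hour. The labels call the samples of a group biological replicates, name no ecotype, mutation or transgene, and state that each sample pools seedlings of several plates. Whole seedlings were lit and roots were cut from them afterwards, so the excised root tips had been attached to a lit shoot.

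HY5 is a basic leucine zipper (bZIP) transcription factor that promotes light-dependent development. In darkness the COP1 ubiquitin ligase marks HY5 protein for degradation, and active phytochromes and cryptochromes restrain COP1, so HY5 protein builds up in light. HY5 binds DNA sequences with an ACGT core, and mutants that lack it have long hypocotyls in light and altered root growth and branching. HYH overlaps with HY5 in function and can form dimers with it. An array reads only transcript and cannot show how much of either protein was present. In a sample of many cells, more expressing cells and more RNA per cell cannot be told apart.

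HY5 transcript was low in the dark root tips and high after 1 h of red light. The HY5 signal was 84.2, 84.0 and 171.6 in dark 1, 2 and 3. It was 1090.5, 1881.5 and 1625.7 in red light 1, 2 and 3. Every red light array thus lay above every dark array, and the closest pair, red light 1 and dark 3, still differed 6.35-fold. The most distant pair, red light 2 and dark 2, differed 22.4-fold. Of the 13647 tested probe sets, 2.23% had groups that did not overlap with red light higher, and since the members were chosen on this contrast nothing is read from that share.

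On the log2 scale HY5 averaged 6.74 ± 0.59 over the dark arrays and 10.55 ± 0.41 over the red light arrays (SD, n = 3 each). The change was 3.81 (SE 0.39 in limma), a 14.0-fold rise. Over all tested probe sets the median SD was 0.40 among dark arrays and 0.46 among red light arrays, so the spread of HY5 was of ordinary size in red light and somewhat wider in the dark, where dark 3 stood above the other arrays. The change of HY5 was the 3rd highest of the 13647 tested probe sets, against a median absolute change of 0.24 and a 95th percentile of 0.85. With sample numbers taken as labels only, red light over dark was 13.0-fold for number 1, 22.4-fold for number 2 and 9.47-fold for number 3.

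HYH, in contrast, was dim on every array, and its groups overlapped. The HYH signal was 64.5, 1.9 and 65.1 in dark 1, 2 and 3. It was 126.0, 38.1 and 50.9 in red light 1, 2 and 3. Red light 1 was the brightest array and dark 2 by far the dimmest, while dark 1 and dark 3 lay above red light 2 and red light 3. Dark arrays had a mean signal of 43.8 ± 36.3 and red light arrays one of 71.7 ± 47.5 (SD, n = 3 each), so the gap between the means was smaller than either SD.

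On the log2 scale, HYH averaged 4.32 ± 2.94 over the dark arrays and 5.97 ± 0.90 over the red light arrays (SD, n = 3 each). The difference was 1.65 (SE 1.36, limma fit over all 22746 probe sets), and it rested on dark 2. Without that array it was -0.052 (SE 0.74), a value that mixes treatment with the array classes described below, since both remaining dark arrays are of 1 class. With 16 signal units added to each value before the logarithm, which damps values near the floor, the HYH difference was 0.71 (SE 0.70) and the HY5 change was 3.61 (SE 0.36).

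**Figure D1:**
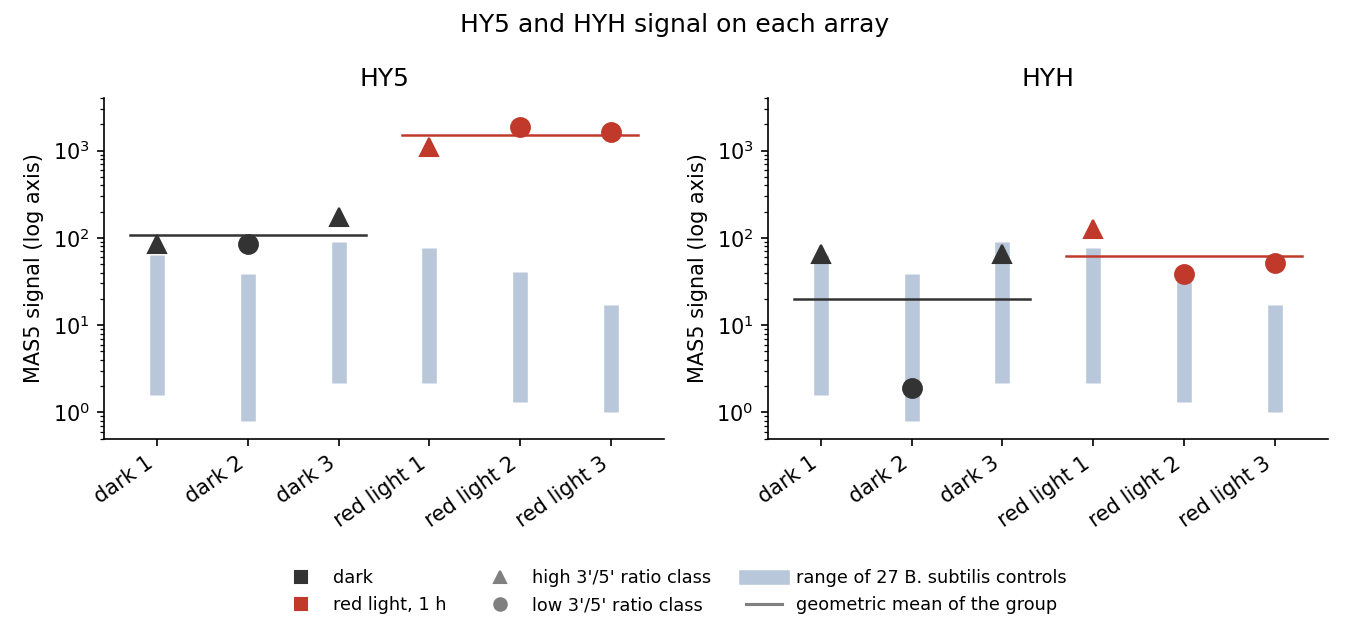
MAS5 signal of HY5 (left) and HYH (right) on each of the 6 arrays, on a log axis. Points are single arrays, horizontal lines the geometric mean of each group, and pale bars the range of 27 control probe sets for Bacillus subtilis transcripts on that array. HY5 runs from 84.0 to 171.6 on dark arrays and from 1090.5 to 1881.5 in red light, whereas the HYH points of the groups overlap, lie inside the pale bars in dark 2, dark 3 and red light 2, and lie above them on the other arrays.

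How close HYH lay to the floor of the arrays can be read from 27 control probe sets for transcripts of the bacterium Bacillus subtilis. Their signals were low on all arrays, with medians of 6.4 to 14.2. In dark 2 the HYH signal of 1.9 was at or below that of 18 of the 27 controls. It was at or below 3 of them in dark 3 and 1 in red light 2, and above all of them on the other arrays. The margin in dark 1 was small, 64.5 against 63.5. The HY5 signal was above all 27 controls on every array, in the dark as well. Whether these bacterial transcripts had been added to the samples was not given in the sources used here, and the detection calls of the arrays were not used.

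The 6 arrays also differed in the ratio of 3' to 5' signal of their control transcripts, a usual measure of how complete the labelled target is, and this split crossed the treatment. The GAPDH control had a 3'/5' ratio of signals of 20.2 to 26.2 in red light 1, dark 1 and dark 3, here called the high-ratio class. For red light 2, red light 3 and dark 2, the low-ratio class, it was 0.981 to 1.45. The actin ratio (71.7 to 138 against 13.8 to 20.9) and the ubiquitin ratio (6.95 to 8.79 against 1.47 to 1.81) split the arrays the same way. In limma with group and class as terms, 36.8% of the 13647 tested probe sets differed between the classes.

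Within both classes HY5 was higher in red light. In the high-ratio class, red light 1 was 13.0-fold above dark 1 and 6.35-fold above dark 3, and the log2 change was 3.18 (9.07-fold). In the low-ratio class the ratios to dark 2 were 22.4 for red light 2 and 19.4 for red light 3, and the change was 4.38 (20.8-fold). The changes in the classes differed by 1.20, a difference that was not tested and that rests on 1 red light array in the high-ratio class and 1 dark array in the low-ratio class. With class as a term beside group, the HY5 change was 3.78 (SE 0.35), and it was the 2nd highest of the 13647.

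The difference between classes was fitted for each member as well. The rows were named by identifier and not for a class difference, but their signals and the split of the arrays were already known, so the class p-values are not independent of that knowledge. HY5 differed by -0.082 (SE 0.35, high-ratio minus low-ratio class, limma adjusted p = 0.872 over 13647 probe sets). Its sign was not settled. In the dark the mean of the high-ratio arrays was higher by 0.52. That came from dark 3 (171.6), as dark 1 (84.2) was level with the low-ratio dark 2 (84.0). In red light the high-ratio array was lower, by a mean log2 difference of -0.68. Both amounts are small beside the change with red light.

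HYH, by contrast, was higher in the high-ratio class. Its signal was 64.5, 65.1 and 126.0 in the high-ratio arrays and 1.9, 38.1 and 50.9 in the low-ratio arrays, so that the classes did not overlap, as for 19.7% of all 22746 probe sets with the high-ratio class above. The difference was 3.30 (SE 0.97, limma adjusted p = 0.0272 over all 22746 probe sets), where 21.2% of probe sets differed between the classes and 8.78% were higher in the high-ratio class. The call was lost in 6 of 12 alternatives, whose adjusted p ran from 0.0189 to 0.525. Without dark 2 the difference was 1.52 (SE 0.84, limma adjusted p = 0.25). Some markers of root and shoot tissue, described last, were also called for class, in both directions, as were 36.8% of all tested probe sets. Nothing is read from the number of these markers, and their part in the HYH values was not tested.

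Within each class HYH was higher in red light, by very different amounts. In the high-ratio class red light 1 was 1.95-fold above dark 1 and 1.94-fold above dark 3, a log2 change of 0.96. In the low-ratio class red light 2 and red light 3 were 20.1-fold and 26.8-fold above dark 2, a change of 4.53. The latter folds divide by the signal of 1.9 that lay among the bacterial controls, so their size is set by a value at the floor. With 16 units added, the changes in the high-ratio and low-ratio classes were 0.81 and 1.75. With class as a term, the HYH change was 2.75 (SE 0.97), and 0.96 (SE 0.84) when dark 2 was left out as well. The latter repeats the change of the high-ratio class, since no dark array is then left in the low-ratio class.

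**Figure D2:**
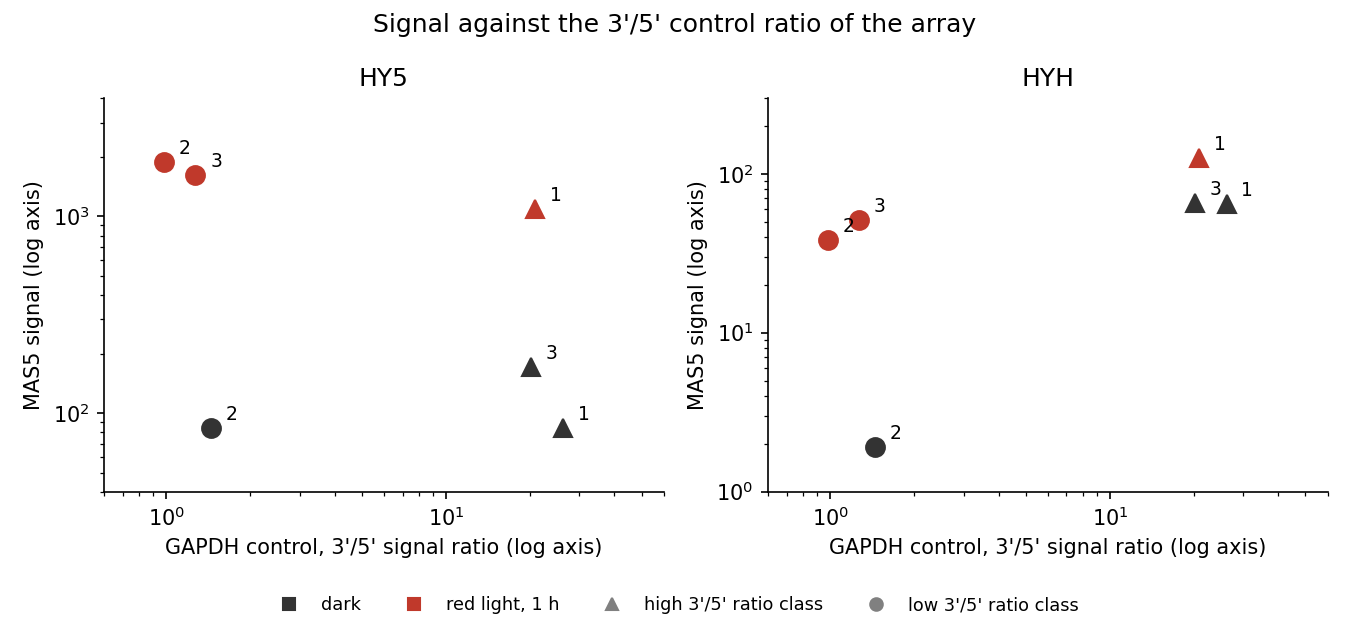
MAS5 signal of HY5 (left) and HYH (right) against the ratio of 3' to 5' GAPDH control signal, both on log axes, with 1 point per array and the replicate number beside it. HY5 separates by treatment at both ends of the ratio, from 84.0 to 171.6 without light and from 1090.5 upwards in red light. HYH separates by class, with 64.5 to 126.0 at high ratios and 1.9 to 50.9 at low ratios, and within each class the red light arrays lie above the dark arrays.

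The size of the HY5 change varied little with the processing, and that of HYH varied much. Over 19 alternatives the HY5 change ran from 3.18 to 4.38, with the ends set by the separate classes. Over 17 alternatives the HYH difference ran from -0.052 to 4.53. It was 0.46 (SE 1.04) with array weights and 2.93 (SE 1.00) with the GAPDH ratio as a covariate. In the filtered fit, which leaves HYH out, the lowest weights went to red light 1 (0.20) and dark 2 (0.39), the brightest and the dimmest arrays for HYH. Each is also the only array of its class in its group. The weighted contrast of the filtered fit was thus mostly high-ratio dark arrays against low-ratio red light arrays. The weights behind the HYH value were estimated separately over all probe sets and were not kept.

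**Figure D3:**
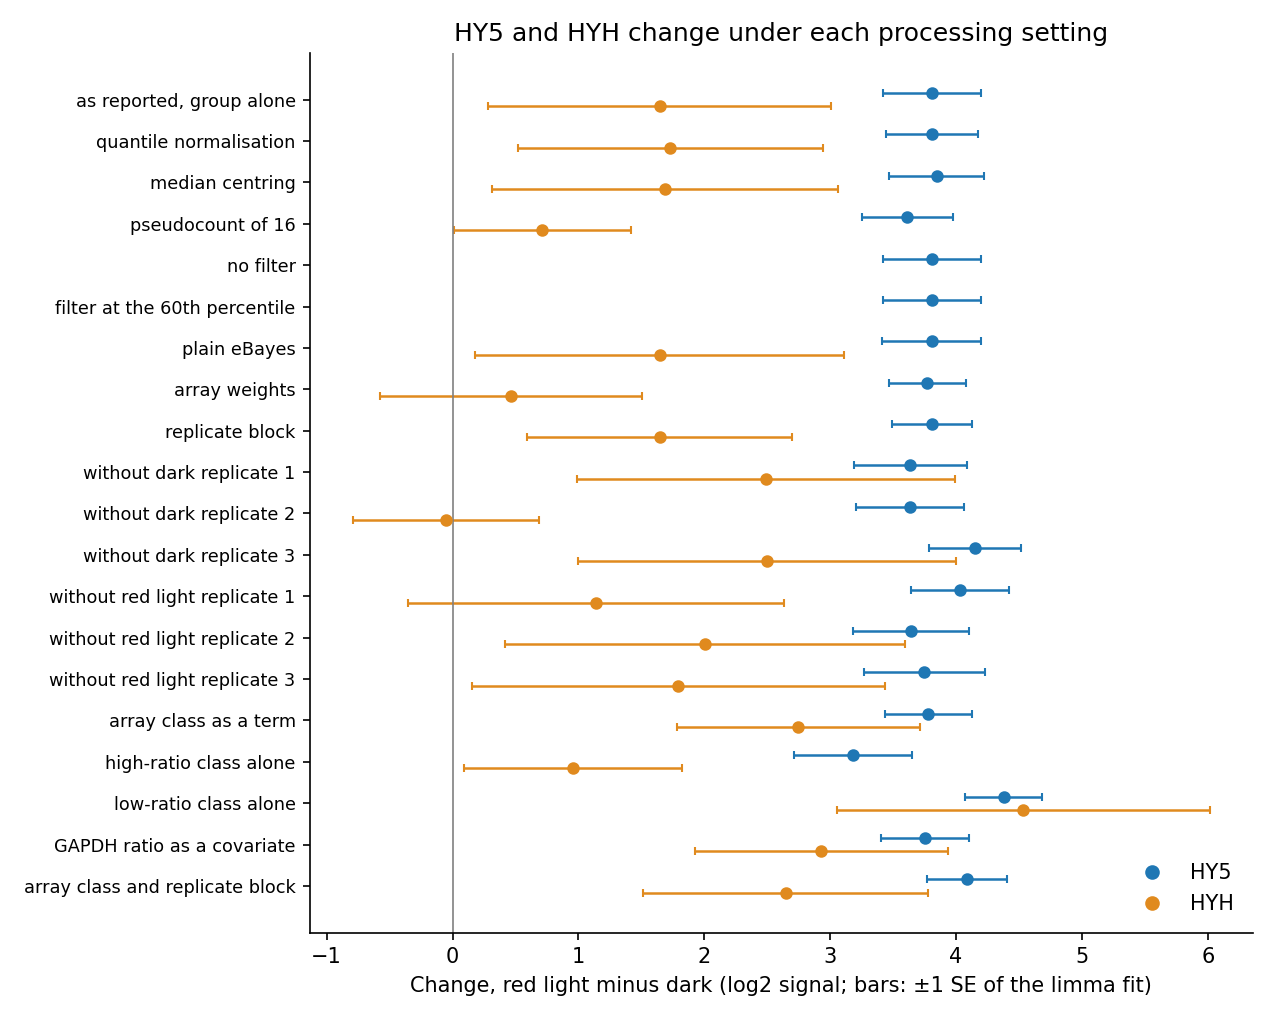
Change of HY5 (blue) and HYH (orange) in red light minus dark, in log2 signal, under each processing setting, with bars of 1 standard error of the limma fit. All HY5 points lie between 3.18 and 4.38. The HYH points run from -0.052 without dark replicate 2 to 4.53 in the low-ratio class alone, and HYH has no point where a filter on dim probe sets left it out or where the setting is the one already used for it.

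The profiles of HY5 and HYH over the arrays were not alike. Pearson's r between their log2 signals was 0.46 and Spearman's rho 0.086 over the 6 arrays, and r was -0.18 without dark 2. The values are descriptions, since the arrays fall into the treatment groups and the classes at once. By contrast, 17 of the other 13646 tested probe sets had r above 0.95 with HY5, 8 of them with a named gene.

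The named gene most like HY5 was AT1G13670, with r = 0.990 and the same order of the 6 arrays. Its signal was 65.5, 45.0 and 95.8 in dark 1, 2 and 3. In red light 1, 2 and 3 it was 281.7, 486.0 and 376.7. As in HY5, dark 3 was the highest dark array and red light 1 the lowest red light array. UGT78D2, a flavonoid glucosyltransferase, came next with r = 0.974. Its signal was 115.9, 89.6 and 126.8 on the dark arrays, against 268.7, 261.8 and 250.2 with red light, so its red light arrays were nearly level. The others of the 5 were AT4G15010 (r = 0.968), psaB, a chloroplast-encoded core protein of photosystem I (r = 0.964), and AT4G34880 (r = 0.958). Correlation ignores size, and the changes of these 5 genes ran from 0.34 (AT4G15010) to 2.86 (psaB), all below the 3.81 of HY5.

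At the opposite end, the named genes with the lowest r to HY5 were AT3G01730 (-0.984), AT3G05675 (-0.976) and AT2G25510 (-0.973). The signal of AT3G01730 was 259.4 to 262.1 on the dark arrays, against 139.9 to 150.3 with red light, among the tightest groups described here. AT2G25510 ran from 117.2 to 421.6 on the dark arrays and from 26.2 to 53.7 with red light. Limma with group alone called 0 probe sets on this contrast (0% of 13647, with 258 at an unadjusted p under 0.05), so that none of these 8 genes passed it. With class as a term, 0.0806% of all tested probe sets were called higher and 0.0440% lower. Among those called higher were AT1G13670 and psaB (limma adjusted p = 0.0374 and 0.0224). Likeness to HY5 was measured over the same arrays, so these calls say nothing further of HY5.

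The named genes most like HYH, which like it were lowest in dark 2, were nad4L, a mitochondrial subunit of the NADH dehydrogenase complex (r = 0.998), AT3G04950 (0.985), AT3G53990 (0.984), bZIP58 (0.976) and AT3G23090 (0.970). The signal of nad4L was 61.3 in dark 2 and 94.6 to 113.5 on the other arrays, a range far narrower than that of HYH. The bZIP gene bZIP58 had 158.0 in dark 2, 475.9 and 571.3 in dark 1 and 3, and 801.4, 383.1 and 466.7 in red light 1, 2 and 3. The order of the 6 arrays was that of HYH in both nad4L and bZIP58. Between the classes bZIP58 differed by 1.32 on the log2 scale, which follows from its choice by likeness to HYH and is given as a description. Without dark 2, r to HYH was 0.98 for nad4L, 0.97 for bZIP58, 0.92 for AT3G23090, 0.87 for AT3G04950 and 0.77 for AT3G53990. The named genes with the lowest r to HYH were TMT2, a tonoplast sugar transporter (-0.992), AT1G05350 (-0.984) and AT1G26250 (-0.974). TMT2 had a signal of 997.0 in dark 2 and of 481.1 to 610.0 elsewhere.

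**Figure D4:**
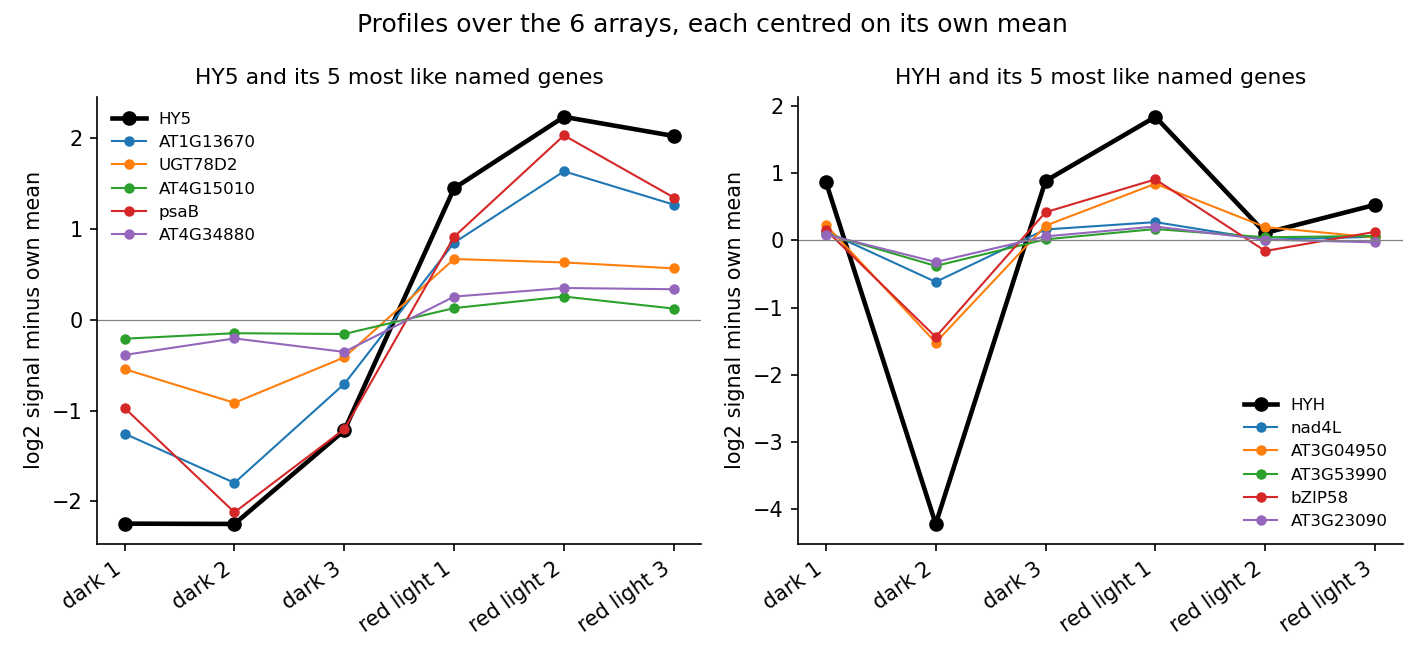
Log2 signal over the 6 arrays, each profile centred on its own mean, for HY5 (left, black) and HYH (right, black) with the 5 named genes of highest Pearson correlation to each. The HY5 profiles step up between the dark and the red light arrays, with r of 0.958 to 0.990. The HYH profiles share a low point in dark 2, with r of 0.970 to 0.998, and the HYH excursion is by far the largest.

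Other bZIP factors of the same family showed nothing of the size seen for HY5. Of 63 bZIP genes listed, 19 had a named probe set besides HYH, and 15 of these were tested. None was called in limma by group alone (0% of all tested probe sets) or with class as a term. With class, 0.0806% of all tested probe sets were called higher and 0.0440% lower. In none of the 15 were the groups free of overlap, against 6.16% of all tested probe sets in either direction. With so few genes, nothing is read from these counts. By group alone 5 lay above 0 and 10 below, with a median change of -0.10 against -0.015 over all tested probe sets. The largest differences were -0.95 (SE 0.41) for bZIP48, 0.63 (SE 0.83) for BZIP61, 0.58 (SE 0.54) for bZIP58 and -0.29 (SE 0.30) for BZIP17. With class as a term, bZIP58 had the largest difference of the 15 at 1.02 (SE 0.26, limma adjusted p = 0.30), bZIP48 had -0.65 (SE 0.23), and BZIP61 turned to -0.12 (SE 0.29). For bZIP48 the signal was 1215.2, 563.0 and 1461.6 on the dark arrays, against 671.4, 463.3 and 444.2 with red light, so the groups overlapped through dark 2. The class term was called in limma for 7 of the 15, with 2 brighter and 5 dimmer in high-ratio arrays, against 36.8% of all tested probe sets (14.9% brighter and 21.9% dimmer).

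Few of the genes that act on HY5 could be read. Of 42 listed for light perception and HY5 turnover, 3 had a named probe set, and neither fit called any of the 3. CUL4, the scaffold of the ubiquitin ligases in which COP1 works, had a difference of -0.18 (SE 0.29). CSN5B, a catalytic subunit of the COP9 signalosome, had -0.47 (SE 0.39), and FHL, which helps bring phytochrome A into the nucleus, had -0.31 (SE 0.42). Their median was -0.31. The phytochrome genes and COP1 had no named probe set here, and neither did any of the 16 listed B-box and other partner proteins of HY5.

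Of 47 genes listed as downstream of HY5 or of light, 4 of the 6 with a named probe set were tested, with 0 called in either limma fit. Their median change was 0.50. In 2 of the 4, UGT78D2 and the clock gene GI (GIGANTEA), every red light array was above every dark array. The same held for 2.23% of all tested probe sets, and 6.16% had groups without overlap in either direction. The list was chosen with earlier results of these data known, and UGT78D2 is also among the genes most like HY5. Nothing is therefore read from this count beside that share. GI had a change of 0.84 (SE 0.25), its dark arrays reaching 1056.1 at most and its red light arrays starting at 1510.7. The tetrapyrrole genes CHLM and GSA1, whose products act in chlorophyll synthesis, had differences of 0.17 (SE 0.29) and -0.25 (SE 0.29). The anthocyanin gene DFR lay below the filter, at 18.4 to 194.3 on the dark arrays and 42.9 to 108.9 with red light.

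**Figure D5:**
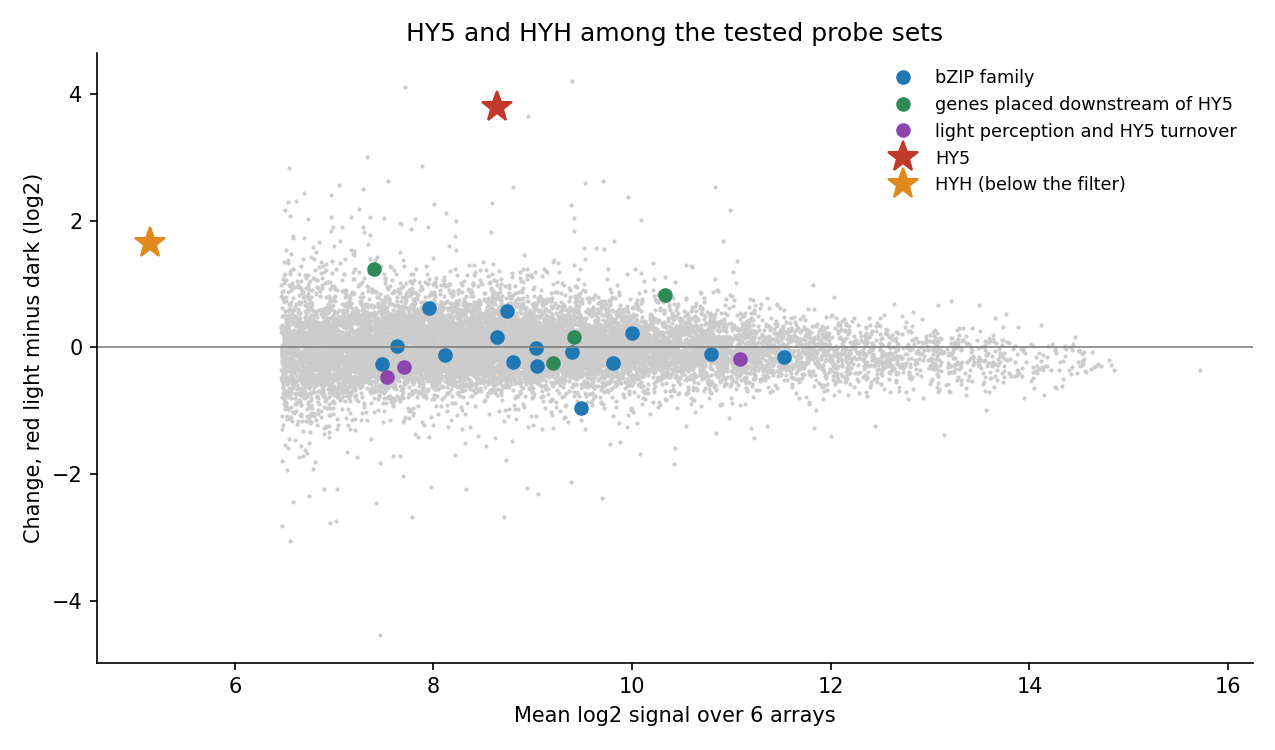
Change in red light minus dark (log2) against the mean log2 signal over the 6 arrays for the 13647 tested probe sets (grey), with listed genes coloured and HY5 and HYH as stars. HY5 lies at 3.81, above all but 2 of the tested probe sets. The 15 bZIP genes lie between -0.95 and 0.63, and HYH, at 1.65, lies to the left of the filter.

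The labelled tissue was checked against markers. Of 20 root markers listed, 4 had a named probe set, all tested. PYK10, an abundant root beta-glucosidase, had signals of 15318 to 40657.8, and the root hair gene EXPA18 had 155.7 to 1720.5. Of 12 shoot markers, 5 of the 6 with a named probe set were tested. SPCH, a regulator of the stomatal lineage of leaves and stems, had 3.3 to 56.0. The antenna protein gene LHCB4.1, expressed in green tissue, had 374.8 to 641.1. Between the groups, 0 of the 4 root and 0 of the 5 shoot markers were called in limma in either fit, with medians of -0.26 and -0.14 by group alone and -0.90 and 0.26 with class as a term.

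Between the array classes, however, some of the markers differed, in both directions. All 4 root markers were called in limma for class, against 36.8% of all tested probe sets (14.9% brighter and 21.9% dimmer in high-ratio arrays). With so few markers, nothing is read from such counts beside that share. PYK10 was brighter in high-ratio arrays by 0.79 on the log2 scale. The other 3 were dimmer there, the root hair genes EXPA7 by a log2 difference of -3.61 and EXPA18 by -2.47, and the cell wall enzyme gene XTH26 by -1.14. The median class difference of the 4 was -1.80. Of the 5 shoot markers 2 were called, both brighter in high-ratio arrays, namely PSBW (2.24) and PSAN (1.37), which encode photosystem subunits. PSAN was named after its values were seen. PSBY (1.12), LHCB4.1 (-0.036) and RCA (-0.15) were not called. The median of the 5 was 1.12.

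The summed signal of the 4 root markers, most of it from PYK10, ran from 28734.2 to 42035.1 in high-ratio arrays and from 18789.8 to 28113.4 in low-ratio arrays. By treatment it ran from 18789.8 to 42035.1 in the dark and from 21439 to 28734.2 with red light, so the treatments overlapped. The summed signal of the 6 shoot markers ran from 1403.9 to 2430.1 in high-ratio arrays and from 820.4 to 1402.8 in low-ratio arrays. By treatment it ran from 1294.8 to 2099.7 in the dark and from 820.4 to 2430.1 with red light, again with overlap. No marker was at 0 on any array. The part of tissue make-up in the HY5 and HYH values was not tested.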

How the data were processed

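Root tip RNA from 6 samples was labelled from 5 µg of total RNA with an oligo-dT primer, per the labels' protocols, and hybridised to 1 Affymetrix array each. The deposited values are linear intensity signals, 1 for each probe set of an array, from MAS5 according to the submitters' processing notes. Its version was not given in the sources used here. On each array the mean after trimming 2% from each end was 500.04 to 500.06, so arrays share 1 scale but not the shape of their distributions.

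From 22810 rows, 64 controls were set aside. With log2 of the signal and no pseudocount, the 13647 probe sets with a mean log2 signal over the 40th percentile (88.4 in signal units) were fitted for red light minus dark with limma 3.58.1 in R 4.3.3, using lmFit and a robust eBayes with trend (statmod 1.5.0). Calls used a Benjamini-Hochberg adjusted p under 0.05. HYH lay below the filter, so its values come from the same fit over all 22746 probe sets, a departure from the design, which had it in the filtered fit. Array classes were set at the largest gap in the GAPDH 3'/5' ratio. With 3 arrays per group, their number limits the precision. The fit with class as a term was tested on simulated data for the 13647 tested probe sets. For the fit by group alone only calls were counted there, and the fit over all 22746 probe sets was not simulated.

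Names came from the platform annotation (exactly 1 gene for 13513 probe sets), updated through RefSeq (TAIR10.1). Named were HY5, HYH, the 5 named genes of highest and 3 of lowest Pearson correlation with each, and at most 4 tested members of each list by absolute change. DFR and SPCH, which were not tested, were named after their values were seen. The members, lists and the classes were chosen with earlier results of these data known.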

Additional observations from a re-analysis of the deposited data

How the results depend on the processing

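The HY5 change kept its direction in all 19 alternatives and HYH in 16 of 17. HY5 was 3.18 in the high-ratio class alone and 4.38 in the low-ratio class alone, and 3.64 to 4.15 with 1 array left out. With class as a term and 1 array left out, alternatives chosen after seeing the data, it was 3.18 to 4.38, with the ends without dark 2 and without red light 1. Those ends repeat the values of the separate classes, because without either array only 1 class holds both treatments. They are no further check. The HYH difference was 4.53 in the low-ratio class alone and -0.052 to 2.50 with 1 array left out, the lowest without dark 2. The class difference of HY5, which never passed the threshold, changed sign to 0.025 with median centring and 0.85 with the replicate block, and was -0.68 to 0.52 with 1 array left out, above 0 without dark 1 (0.052), red light 1 (0.52) or red light 2 (0.049). The class difference of HYH lost its call with plain eBayes (3.30, limma adjusted p = 0.10), with the replicate block (3.00, adjusted p = 0.525), and without dark 1, dark 2, dark 3 or red light 2. It was 1.52 to 5.09 with 1 array left out. For both genes the ends of these class ranges are the differences within 1 treatment, red light without dark 2 and dark without red light 1.

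Calls on red light by group alone numbered 0 in limma, 2261 with array weights (1311 up, 950 down), 17 in the fit with class (11 up, 6 down), 17 with class and replicate block, 22 with the GAPDH ratio, 162 within high-ratio arrays and 274 within low-ratio arrays, where the lone array of a group is assumed to vary like the others. They numbered 0 to 15 with 1 array left out, 15 without red light 1. With array weights, class and treatment cannot be told apart, since mostly high-ratio dark arrays are set against low-ratio red light arrays. Class calls, 5020, fell to 60 with the replicate block and were 2412 to 5259 with 1 array left out, 2412 without red light 1. The arrays of numbers 1 and 2 share a class, so beside the block the class term rests on number 3, where class goes with treatment. The fit with the block can therefore read little of class. For the other shifts in these counts the cause was not tested. HYH has no value under either filter. Deviations of same-numbered arrays correlated at r = 0.58 (number 1), 0.64 (number 2) and -0.32 (number 3). Both arrays were high-ratio in number 1 and low-ratio in number 2, but number 3 held 1 of each class. The sign of r thus went with shared class, and these values cannot show whether same-numbered samples are pairs. The main fits did not take them as pairs. The replicate block left the HY5 change at 3.81 and the HYH difference at 1.65. Signal near the floor of the arrays limits what can be said of HYH.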
